A study of Rattus norvegicus with 6 samples.

Results

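The nuclear genes for the subunits of oxidative phosphorylation were compared between cardiac fibroblast cultures given an antagomiR against miR-142-3p and cultures given a negative control oligonucleotide (NC). The members were all nuclear rows of the expression table that met a rule on symbol and level. The symbol had to begin as one of the subunit families of complexes I to V. These were Nduf a, b, c, s or v followed by a digit, Sdh a to d, Uqcr, Cox 4 to 8 and Atp5. The mean level over the 6 libraries had to be at least 1 FPKM. FPKM divides the fragments of a gene by its length and by the size of the library, so levels can be compared between genes. Of the 30560 genes in the table, 86 rows had such a symbol and 76 reached that level. The 76 rows carry 73 different symbols, because Atp5mk, Ndufa10l1 and Ndufs5 are each listed at a pair of chromosomes. Complex I had 35 members, complex II 4, complex III 7, complex IV 14 and complex V 16. The members were thus chosen by their symbol and their mean level, and the difference between the groups was not part of this rule. The choice was made with earlier results of these data known. The shares of members given below are therefore descriptions, and their contrast with all tested genes is no test of the pathway.

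Both groups were primary fibroblasts (NRCFs) from heart ventricles of SD (Sprague-Dawley) rats 1 to 2 days old, separated from cardiomyocytes by letting fibroblasts attach first and then kept overnight without serum. The antagomiR cultures received 50 nM miR-142-3p antagomiR and the NC cultures received 50 nM NC, both with Lipofectamine RNAiMAX, and each group had 3 libraries of polyadenylated RNA. AntagomiRs are chemically modified antisense strands that pair with a microRNA and keep it from its targets. No genotype differs between the groups, the time between transfection and harvest was not given in the sources used here, and the labels do not say whether the 3 libraries of a group came from separate isolations of cells. All p-values therefore measure only the spread between these libraries, which may be technical.

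Oxidative phosphorylation is the process by which mitochondria turn the oxidation of fuel into ATP. Complex I takes electrons from NADH and complex II from succinate, complex III passes them on to cytochrome c, complex IV hands them to oxygen, and complex V uses the resulting proton gradient to make ATP. Most subunits are encoded in the nucleus, made in the cytosol and imported, while a small core is encoded by mitochondrial DNA, so each complex except complex II is assembled from the products of both genomes. Several complex IV subunits exist as a widely expressed form and a second form found mainly in heart and skeletal muscle or under low oxygen.

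The microRNA that the antagomiR is directed against has the following mature sequence in RefSeq (build GRCr8, chr10:73055155-73055177, plus strand). It is shown because it is the target of the treatment, and the capitals mark the seed, bases 2 to 8, through which a microRNA pairs with messenger RNA.
rno-miR-142-3p: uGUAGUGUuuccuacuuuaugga
The precursor gene Mir142 was at 2.84, 1.83 and 3.15 FPKM in antagomiR replicates 1 to 3, against 2.78, 1.11 and 1.37 FPKM in NC replicates 1 to 3. These values rest on 3 to 8 fragments per library and the groups overlapped, and polyadenylated libraries do not measure the mature form that an antagomiR blocks.

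Library totals ran from 22215475 to 24622667 fragments in the antagomiR group and from 19472409 to 24248843 in the NC group, and a transcript of 1 kb with 3 fragments had 0.122 to 0.154 FPKM, depending on the library. Taken as a floor, this covers only counting error. All 10 of the cardiac fibroblast markers listed for checking the cell type were above the 1 FPKM level, with sums of 10700 to 11000 FPKM in antagomiR libraries and 11300 to 11400 FPKM in NC libraries. Of these, 6 rose and 2 fell, Thy1 and Col1a2, also without NC replicate 3, while 0 to 2 fell without any other single library. Leukocyte transcripts were present as well, and of 15 leukocyte and macrophage markers, all of them above that level, 6 rose and 0 fell. Without NC replicate 3 there were 14 that rose, without any other single library 2 to 3, and after median-ratio scaling 5. They summed to 1100, 985 and 1040 FPKM in antagomiR replicates 1 to 3, against 152, 224 and 776 FPKM in NC replicates 1 to 3, so that NC replicate 3 stood apart from the other NC libraries. It also had the lowest share of fragments on mitochondrial genes, 3.52%, where the other 5 libraries had 4.05% to 4.46%. Of 7 endothelial markers only Tek was tested. It rose, also without NC replicate 3, but did not pass the threshold without any other single library or after median-ratio scaling, while Emcn was at 0 in all libraries. Of 7 smooth muscle and pericyte markers 4 were tested and 3 fell (Cnn1, Notch3 and Myh11), and without NC replicate 3 Pdgfrb fell too. In such bulk libraries, fewer cells of a type and less RNA per cell cannot be told apart. The part of the leukocyte transcripts in the values below was not tested, and the counts of calls are given with and without NC replicate 3.

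The subunit genes as a whole differed little between the groups. Of the 76 members, 2 rose, Cox6a2 and Ndufs4, which is 2.63%, and 0 fell, while 26.7% of the 12024 genes tested were called in the same comparison (limma on log2(FPKM + 1), Benjamini-Hochberg adjusted p under 0.05 over all genes). By direction, 17.5% of all tested genes rose and 9.21% fell. Rises were 65.6% of these calls, and 51.5% after median-ratio scaling, 43.1% after quantile normalization and 52.6% with limma voom on fragment counts. At an unadjusted p under 0.05 the members numbered 9 of 76 (11.8%), against 39.2% of all tested genes. The groups' ranges did not overlap for 7 members (9.21%), with the antagomiR libraries above in 5 (6.58%) and below in 2 (2.63%). Over all tested genes this was 44.6%, with the antagomiR libraries above in 29.2% and below in 15.4%.

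Fold changes here and below are antagomiR minus NC on the log2(FPKM + 1) scale, which understates the change of low genes. The median log2 fold change of the members was 0.05, and that of all tested genes 0.06. Both medians moved with the scaling, to -0.01 for the members and 9.1e-05 for all genes after median-ratio scaling, and to -3.1e-05 and -0.05 after quantile normalization. Single members lay between -0.47 and 0.55, with 57 above 0 and 19 below in the values as deposited. The median size of the change, without its sign, was 0.09 for the members and 0.16 for all genes, while the median standard error was 0.084 for the members and 0.087 for all genes. For 73 of 76 members (96.1%) the whole 95% confidence interval lay within a 1.5-fold change in either direction, as it did for 76.5% of all tested genes. The 3 exceptions were Cox6a2 and a pair of complex V rows, Atp5me and the Atp5mk row on chromosome 10. The estimated change was under 1.25-fold for 74 members (97.4%), and for 75.9% of all tested genes.

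**Figure D1:**
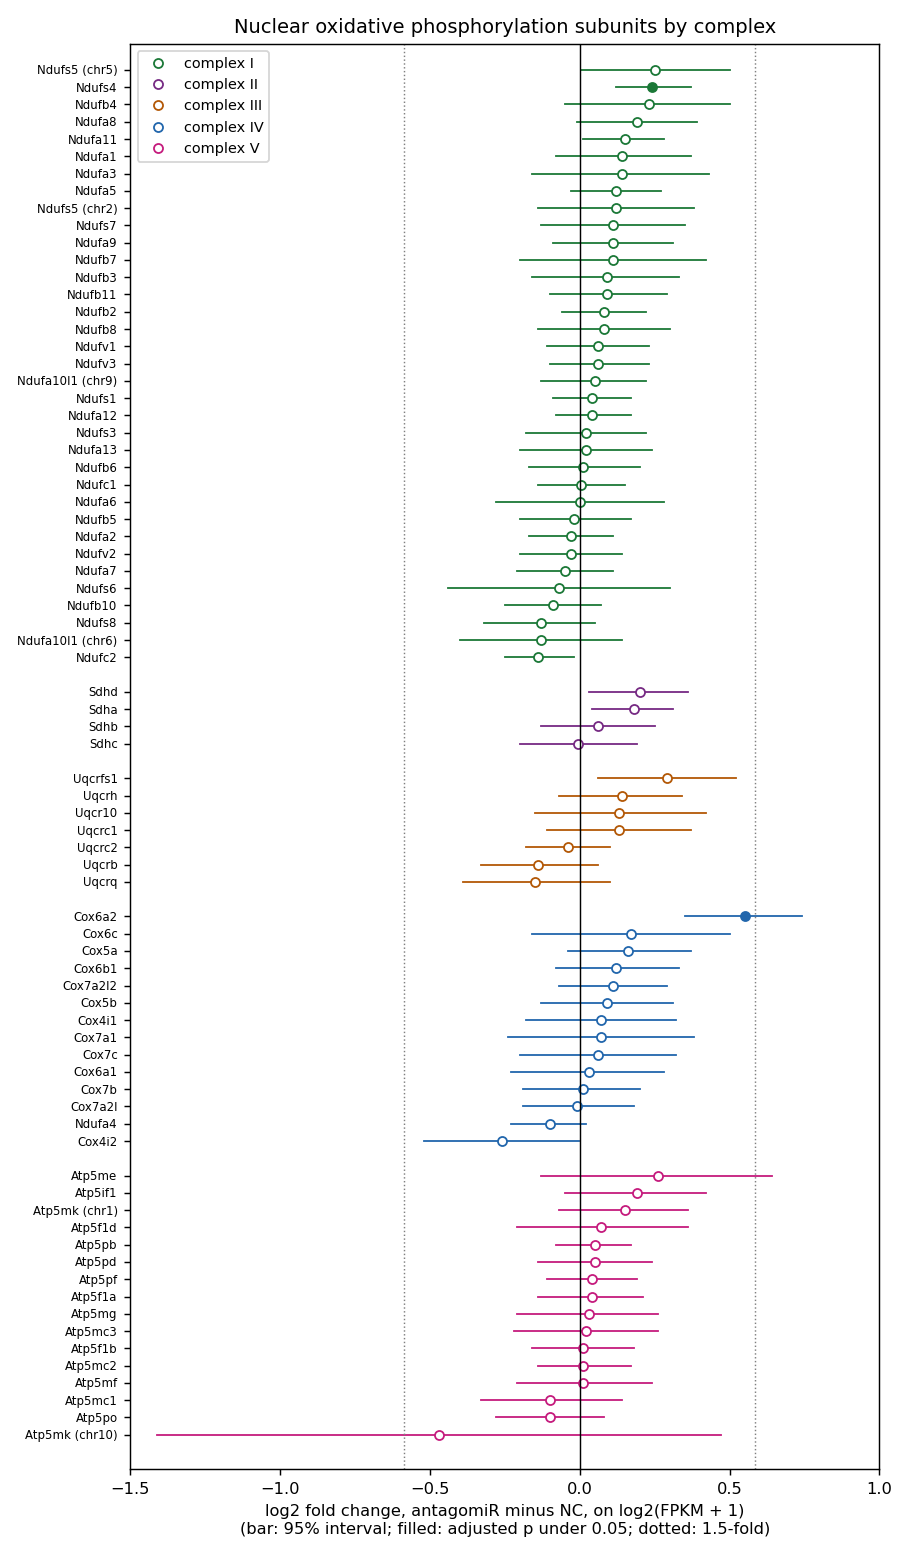
Log2 fold change, antagomiR minus NC on log2(FPKM + 1), of each of the 76 subunit genes, ordered within complexes I to V. Points are estimates from 3 libraries per group, bars are 95% confidence intervals, filled points mark the 2 genes past the adjusted p threshold (Ndufs4 and Cox6a2), and dotted lines mark a 1.5-fold change; most intervals cross 0 and stay within the dotted lines.

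The levels spanned a wide range that both groups shared. The highest member was Cox6a1 of complex IV, at a mean of 568 FPKM over the 6 libraries, and the lowest was Cox7a1, also of complex IV, at 1.55 FPKM. Median levels over the 6 libraries were 39.1 FPKM for complex I, 40.3 for complex II, 66.9 for complex III, 79.7 for complex IV and 97.1 for complex V. In complex I the membrane subunit Ndufb4 was the highest and Ndufs6 the lowest. Sdhb was the highest and Sdhd the lowest member of complex II, and Uqcrq was the highest and Uqcrc2 the lowest member of complex III. In complex V the catalytic beta subunit Atp5f1b was the highest, at 343 FPKM, and the Atp5mk row on chromosome 10 the lowest.

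**Figure D2:**
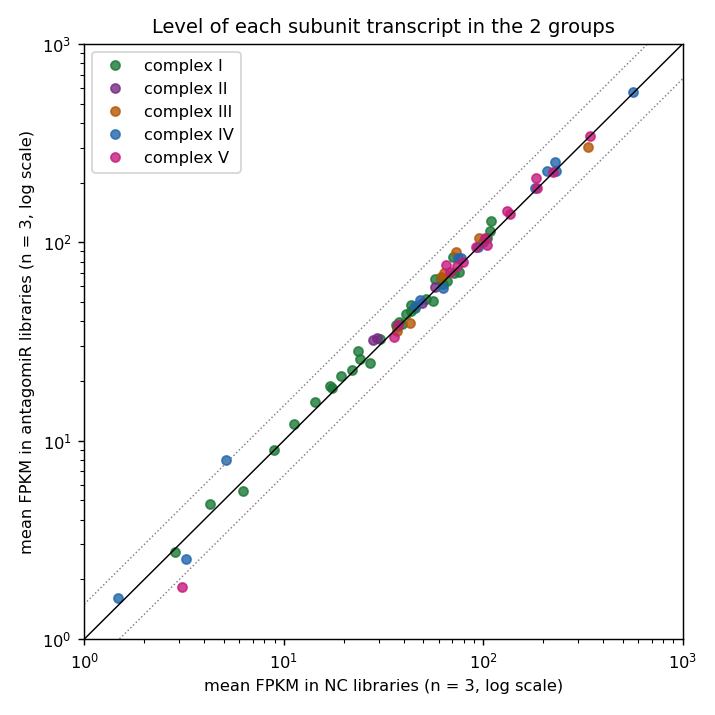
Mean FPKM of each subunit gene in the 3 antagomiR libraries (vertical, log scale) against the 3 NC libraries (horizontal, log scale), coloured by complex. The solid line marks equal levels and the dotted lines a 1.5-fold difference; Cox6a2, at 7.96 against 5.13 FPKM, is the point above the upper line, and the Atp5mk row on chromosome 10, at 1.84 against 3.09 FPKM, the point below the lower one.

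Cox6a2 showed the largest increase of the members. It encodes the heart and skeletal muscle form of subunit 6A of cytochrome c oxidase (complex IV) and is listed as ENSRNOG00000019851 on chromosome 1 from 182788528 to 182789274 in mRatBN7.2. Its level was 7.87, 7.27 and 8.75 FPKM in antagomiR replicates 1 to 3, against 5.19, 5.38 and 4.81 FPKM in NC replicates 1 to 3. Every antagomiR library was above every NC library. The counts behind these levels were 83, 85 and 95 fragments in antagomiR replicates 1 to 3, and 48, 62 and 45 fragments in NC replicates 1 to 3. The difference was 0.55 on the log2 scale (standard error 0.08, 95% confidence interval from 0.35 to 0.74, limma adjusted p = 0.00339), and the gene was called under all 17 other settings run. No other row of the table overlapped it, and the nearest, Itgad at a distance of 367 bp, was at no more than 0.0694 FPKM in any library.

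The widely expressed form, Cox6a1, was at 615, 522 and 580 FPKM in antagomiR replicates 1 to 3, against 491, 574 and 627 FPKM in NC replicates 1 to 3. These groups overlapped, with a log2 fold change of 0.03 and a 95% confidence interval from -0.23 to 0.28 (limma adjusted p = 0.885). Cox6a2 was therefore a small part of the subunit 6A transcripts in both groups. As a percentage of the Cox6a1 level it was 1.28, 1.39 and 1.51 in antagomiR replicates 1 to 3, and 1.06, 0.938 and 0.767 in NC replicates 1 to 3.

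Because Cox6a2 is a muscle gene, the cardiomyocyte markers are given beside it. Of 16 listed markers, 11 were tested, of which 3 rose (Myl2, Actc1 and Myh7) and 2 fell (Tnnc1 and Tnnt2). Without NC replicate 3 Myl3 rose too. The share that rose was thus 27.3%, and 36.4% without NC replicate 3. Over all tested genes 17.5% rose and 9.21% fell, and 26.5% and 13.9% without NC replicate 3. With any other single library left out, 2 to 3 of the markers rose and 1 to 2 fell. Their summed level was 367 to 434 FPKM in antagomiR libraries and 451 to 496 FPKM in NC libraries, and most of it was Tnnt2, the cardiac form of troponin T, at 254 ± 25.1 FPKM in antagomiR libraries and 339 ± 21.6 FPKM in NC libraries (SD, n = 3 each). Ttn, Ryr2, Ckm and Mb were under 1 FPKM in all 6 libraries, and no listed marker found in the table was at 0 in all of them. The part of remaining cardiomyocytes in the rise of Cox6a2 was not tested. Cox7a1, the muscle form of subunit 7A, was at 1.35, 1.48 and 2.02 FPKM in antagomiR replicates 1 to 3, against 1.2, 1.58 and 1.67 FPKM in NC replicates 1 to 3. Its groups overlapped (log2 fold change 0.07, limma adjusted p = 0.733).

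Cox4i2 encodes the form of subunit 4 known to be induced by low oxygen in mammalian cells. It was at 2.04, 2.84 and 2.74 FPKM in antagomiR replicates 1 to 3, against 3.28, 2.99 and 3.43 FPKM in NC replicates 1 to 3. All antagomiR values lay below all NC values, but the log2 fold change of -0.26 did not pass the threshold (limma adjusted p = 0.126). Cox4i1, the common form, was at 189 ± 11.2 FPKM in antagomiR libraries and 181 ± 26 FPKM in NC libraries (SD, n = 3 each). Cox4i2 was 1.01, 1.57 and 1.49 percent of Cox4i1 in antagomiR replicates 1 to 3, and 2.11, 1.66 and 1.65 percent in NC replicates 1 to 3.

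Ndufa4 is a complex IV subunit in spite of its name, which was given when it was thought to belong to complex I. It was at 61, 56.4 and 58.6 FPKM in antagomiR replicates 1 to 3, against 63.9, 60.7 and 64.5 FPKM in NC replicates 1 to 3, with 1 antagomiR library above the lowest NC library. The log2 fold change was -0.10 (limma adjusted p = 0.198). Its paralog Ndufa4l2, which is induced by hypoxia and lowers complex I activity, was just under the level needed for membership, at 1.48, 0.947 and 0.835 FPKM in antagomiR replicates 1 to 3, against 0.327, 0.875 and 0.215 FPKM in NC replicates 1 to 3. These groups overlapped, and the gene was not tested.

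The other complex IV members were the subunits 5A, 5B, 6B, 6C, 7B and 7C, Cox7a2l, which joins complexes III and IV into supercomplexes, and a row named Cox7a2l2. Their log2 fold changes ran from -0.01 for Cox7a2l to 0.17 for Cox6c, and none passed the threshold. Cox7a2l was at 229 ± 5.17 FPKM in antagomiR libraries and 231 ± 23.8 FPKM in NC libraries, and Cox6b1, the common form of subunit 6B, at 229 ± 17.5 FPKM in antagomiR libraries and 210 ± 18.7 FPKM in NC libraries (SD, n = 3 each). Complex IV as a whole had 1 gene that rose and a median log2 fold change of 0.07. The row named Cox7a2l2 lies on chromosome 8 of the table, where RefSeq places Cox7a2, while RefSeq places Cox7a2l2 on chromosome 14, so its identity is uncertain. No row of the table was named Cox7a2, Cox8a, Cox8b or Cox6b2, so no values can be given under these symbols.

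Ndufs4 was the other gene that rose. It encodes an accessory subunit of the matrix arm of complex I, the arm that holds the NADH oxidation site, and its loss in humans causes a form of Leigh syndrome. It is listed as ENSRNOG00000011383 on chromosome 2 from 45951313 to 46061846. Its level was 28.4, 27.1 and 29.3 FPKM in antagomiR replicates 1 to 3, against 23.5, 23.5 and 24.2 FPKM in NC replicates 1 to 3. Every antagomiR library lay above every NC library, and the NC libraries were within 1 FPKM of each other. The difference was 0.24 on the log2 scale (standard error 0.05, 95% confidence interval from 0.12 to 0.37, limma adjusted p = 0.0138). The call was lost with limma voom on fragment counts, at 0.18 (adjusted p = 0.0678), without antagomiR replicate 1 (adjusted p = 0.0597) or 3 (0.075), and without NC replicate 2 (0.0557).

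The other 14 members of the matrix arm did not pass the threshold. They include the core subunits that carry the flavin and the iron-sulfur clusters, Ndufv1, Ndufv2, Ndufs1, Ndufs7 and Ndufs8, and the core subunit Ndufs3. The NADH-binding subunit Ndufv1 was at 39.5 ± 1.39 FPKM in antagomiR libraries and 38 ± 3.33 FPKM in NC libraries, and the large iron-sulfur subunit Ndufs1 was at 22.8 ± 0.328 FPKM in antagomiR libraries and 22.1 ± 1.1 FPKM in NC libraries (SD, n = 3 each). Their log2 fold changes of 0.06 and 0.04 had limma adjusted p = 0.601 and 0.617. Ndufs8 had the lowest estimate of the arm, -0.13 with a 95% confidence interval from -0.32 to 0.05 (limma adjusted p = 0.25). The median log2 fold change of the 15 matrix arm members was 0.04.

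Ndufs6, an accessory subunit near the iron-sulfur clusters and the lowest member of complex I, was at 2.14, 2.35 and 3.71 FPKM in antagomiR replicates 1 to 3, against 2.98, 2.65 and 2.94 FPKM in NC replicates 1 to 3. The antagomiR libraries spread over the whole range of the NC libraries (log2 fold change -0.07, limma adjusted p = 0.789). This row spans only chromosome 2 from 27201713 to 27202258 and rests on 23 to 41 fragments per library. Whether it is the full Ndufs6 gene was not tested, so its level may not be that of the subunit gene.

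The membrane arm of complex I, which pumps protons, had 20 members, of which 0 rose and 0 fell in the test over all genes. Their log2 fold changes ran from -0.14 to 0.25 with a median of 0.08. The members at either end, together with Ndufa11, had an unadjusted p under 0.05 and were picked out after their values were seen. Ndufc2, an accessory subunit of the membrane arm, was at 50.7, 50.3 and 51.7 FPKM in antagomiR replicates 1 to 3, against 54.5, 58.3 and 55.4 FPKM in NC replicates 1 to 3. All antagomiR values were below all NC values. Its log2 fold change was -0.14 with a 95% confidence interval from -0.25 to -0.02 (limma adjusted p = 0.0769). It passed the threshold after median-ratio scaling (-0.20, adjusted p = 0.024), quantile normalization (-0.19, 0.0325), with limma voom (-0.21, 0.042) and without NC replicate 3 (-0.15, 0.0428).

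Ndufa11, a membrane arm subunit that contributes to its stability, was at 49.8, 47.7 and 47.4 FPKM in antagomiR replicates 1 to 3, against 40.7, 44.3 and 45.8 FPKM in NC replicates 1 to 3, so that the groups were apart by a margin smaller than the spread of the NC libraries. The log2 fold change was 0.15 (limma adjusted p = 0.114). The Ndufs5 row on chromosome 5 was at 94.9, 74.4 and 84.6 FPKM in antagomiR replicates 1 to 3, against 63.1, 75.5 and 73.7 FPKM in NC replicates 1 to 3. These groups overlapped, and the log2 fold change was 0.25 (limma adjusted p = 0.122). A second row of that name on chromosome 2, at 4.78 ± 0.828 FPKM in antagomiR libraries and 4.28 ± 0.0788 FPKM in NC libraries (SD, n = 3 each), may share reads with it.

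Ndufb4, the highest of complex I, was at 142, 112 and 129 FPKM in antagomiR replicates 1 to 3, against 96.6, 125 and 106 FPKM in NC replicates 1 to 3. Its groups overlapped, with a log2 fold change of 0.23 (limma adjusted p = 0.2). A further name on 2 chromosomes is Ndufa10l1. The row on chromosome 9 was at 44.9 ± 2.1 FPKM in antagomiR libraries and 43.6 ± 3.68 FPKM in NC libraries, and the row on chromosome 6 at 5.6 ± 0.379 FPKM in antagomiR libraries and 6.27 ± 1.08 FPKM in NC libraries (SD, n = 3 each). RefSeq places Ndufa10 on chromosome 9 and Ndufa10l1 on chromosome 6, so the name of the higher row is uncertain.

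Complex II, succinate dehydrogenase, is the only complex with no subunit from mitochondrial DNA, and it also catalyses a step of the citric acid cycle. All 4 of its subunits were members, 0 passed the threshold, and their median log2 fold change was 0.12. Sdha, the flavoprotein that oxidises succinate, was at 33.8, 33.5 and 32.1 FPKM in antagomiR replicates 1 to 3, against 30.8, 28.9 and 27.9 FPKM in NC replicates 1 to 3, without overlap. Its log2 fold change was 0.18 with a 95% confidence interval from 0.04 to 0.31 (limma adjusted p = 0.0566), and it passed the threshold without NC replicate 1 (0.21, adjusted p = 0.0372). Sdhd, a membrane anchor, was at 33.6, 30.2 and 33.3 FPKM in antagomiR replicates 1 to 3, against 26.6, 27.5 and 30.3 FPKM in NC replicates 1 to 3. The lowest antagomiR library was just under the highest NC library, and the log2 fold change was 0.20 (limma adjusted p = 0.0805). The iron-sulfur subunit Sdhb and the other anchor, Sdhc, had log2 fold changes of 0.06 and -0.0047 (limma adjusted p = 0.617 and 0.974).

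In complex III, none of the 7 members passed the threshold and the median log2 fold change was 0.13. Uqcrfs1, the Rieske iron-sulfur protein that receives electrons from ubiquinol, was at 92.3, 86.4 and 89.4 FPKM in antagomiR replicates 1 to 3, against 65.1, 69.6 and 85.2 FPKM in NC replicates 1 to 3. The groups did not overlap, though NC replicate 3 came within 2 FPKM of the lowest antagomiR library. The log2 fold change was 0.29 with a 95% confidence interval from 0.06 to 0.52 (limma adjusted p = 0.0693), and without NC replicate 3 it was 0.40 (adjusted p = 0.000785). The core subunits Uqcrc1 and Uqcrc2 had estimates of 0.13 and -0.04 (limma adjusted p = 0.399 and 0.634). Uqcrq, the highest of the complex, was at 333, 273 and 299 FPKM in antagomiR replicates 1 to 3, against 295, 340 and 367 FPKM in NC replicates 1 to 3, again with overlap (log2 fold change -0.15, limma adjusted p = 0.345).

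Complex V, the ATP synthase, had 16 members and 0 that passed the threshold, and the ranges of the groups overlapped for all of them. The catalytic head was represented by Atp5f1a and Atp5f1b, the alpha and beta subunits, and the central stalk by Atp5f1d, the delta subunit. Atp5f1b was at 345, 337 and 348 FPKM in antagomiR replicates 1 to 3, against 314, 342 and 369 FPKM in NC replicates 1 to 3. The antagomiR libraries lay inside the spread of the NC libraries, and the log2 fold change was 0.01 with a 95% confidence interval from -0.16 to 0.18 (limma adjusted p = 0.942). The peripheral stalk, which holds the head against the membrane part, was represented by Atp5pb, Atp5pd, Atp5pf and Atp5po, whose log2 fold changes lay between -0.10 for Atp5po and 0.05 for Atp5pb.

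The genes Atp5mc1, Atp5mc2 and Atp5mc3 encode the same mature protein, the c subunit that forms the rotating ring. Atp5mc2 was the highest, at 188 ± 7.18 FPKM in antagomiR libraries and 187 ± 12.4 FPKM in NC libraries (SD, n = 3 each). Atp5mc3 was 42.4 ± 0.567 percent of it in antagomiR libraries and 42.3 ± 3.16 percent in NC libraries, and Atp5mc1 was 17.8 ± 0.376 percent in antagomiR libraries and 19.2 ± 1.48 percent in NC libraries (SD, n = 3 each). Atp5if1, the inhibitor that blocks the synthase from running backwards, was at 232, 191 and 209 FPKM in antagomiR replicates 1 to 3, against 166, 204 and 185 FPKM in NC replicates 1 to 3. Its groups overlapped (log2 fold change 0.19, limma adjusted p = 0.209). The Atp5mk row on chromosome 10, at 2.33, 0.789 and 2.41 FPKM in antagomiR replicates 1 to 3, against 1.16, 3.34 and 4.76 FPKM in NC replicates 1 to 3, had the lowest estimate of all members, -0.47. Its 95% confidence interval, from -1.41 to 0.47, was also the widest, and the row lies wholly within the gene Larp1 (limma adjusted p = 0.428).

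Near the 1 FPKM level that defined membership, the members just inside were Cox7a1, at a mean of 1.55 FPKM over the 6 libraries, the Atp5mk row on chromosome 10 at 2.47 FPKM and Ndufs6 at 2.80 FPKM. Just outside were Ndufa4l2 at 0.78 FPKM, a second Atp5mc1 row on chromosome 10 at 0.69 FPKM and the pseudogene Ndufv3-ps1 at 0.247 FPKM. Further rows below these were a second Uqcrb row on chromosome 1 and 5 rows listed at 0 in all libraries, namely Cox6b1-ps1, Cox6c-ps1, Cox7b2, Cox8c and an Ndufb2 row on chromosome 15. Of the 76 members, 28 overlapped another row of the table and 19 overlapped one of at least 1 FPKM. With the strand setting not given, reads from such overlapping genes cannot be told apart, and this touched neither Cox6a2 nor Ndufs4, which overlapped no other row.

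The libraries within a group differed together across the complexes. NC replicate 3 was the highest of the 6 libraries for 36 members and NC replicate 1 the lowest for 44. Among the antagomiR libraries, replicate 1 was the highest of the 6 for 28 members and replicate 2 the lowest for 15. Summed over the 76 members, the level was 6710, 5976 and 6292 FPKM in antagomiR replicates 1 to 3, against 5636, 6223 and 6481 FPKM in NC replicates 1 to 3. The sums overlapped, with means of 6326 ± 368 FPKM in antagomiR libraries and 6113 ± 433 FPKM in NC libraries (SD, n = 3 each), a ratio of 1.03. By complex the ratio of the mean sums ran from 1.00 for complex III to 1.06 for complex II. The median coefficient of variation of the members was 5.83% between antagomiR libraries and 9.44% between NC libraries, and over all tested genes it was 5.14% and 9.66% in the same groups.

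**Figure D3:**
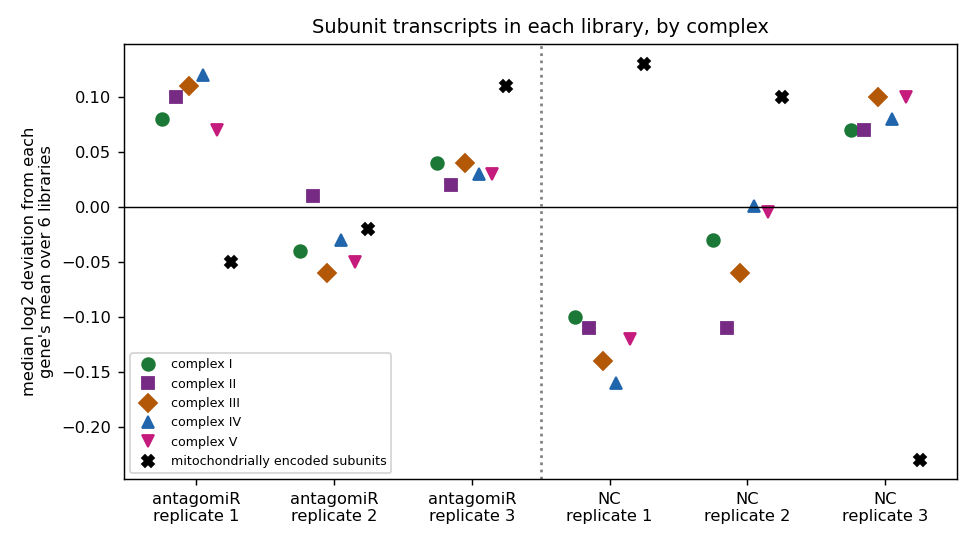
Median deviation of each complex's nuclear subunit genes, and of the mitochondrially encoded subunits, from their own mean over the 6 libraries (log2 scale), in antagomiR replicates 1 to 3 and NC replicates 1 to 3. Complexes I to V are all above 0 in antagomiR replicates 1 and 3 and in NC replicate 3, and all below 0 in NC replicate 1, while the mitochondrially encoded subunits are lowest in NC replicate 3, at -0.23.

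The 13 subunits encoded by mitochondrial DNA followed another order. Their summed level was 37420, 38920 and 40950 FPKM in antagomiR replicates 1 to 3, against 40980, 40060 and 31380 FPKM in NC replicates 1 to 3. NC replicate 3, which was high for the nuclear members with a median deviation of 0.10, was the lowest library here with a median deviation of -0.23, and NC replicate 1, at -0.12 for the nuclear members, was at 0.13. Of the 13 genes, 0 passed the threshold in either direction, and their median log2 fold change was 0.08. They ranged from -0.46 for Mt-nd6, the complex I subunit encoded on the other strand of mitochondrial DNA from the rest (limma adjusted p = 0.0838), to 0.33 for Mt-nd3. Without NC replicate 3, Mt-nd4, Mt-nd5 and Mt-nd6, all subunits of complex I, fell by 0.39, 0.54 and 0.55 (limma adjusted p = 0.00407, 0.00287 and 0.0377). In that fit 0 of the 13 rose. The other complex I genes of this set, Mt-nd1, Mt-nd2, Mt-nd3 and Mt-nd4l, were not called there. With all libraries their log2 fold changes were 0.08, 0.18, 0.33 and 0.09. The rows of Mt-nd5 and Mt-nd6 overlap at their ends, and with the strand setting not given, reads there cannot be told apart.

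Without NC replicate 3, more of the nuclear members also passed the threshold. Then 12 of 76 (15.8%) were called, 11 up (14.5%) and 1 down (1.32%). Of all tested genes 40.4% were called in that fit, 26.5% up and 13.9% down. Beside Cox6a2 and Ndufs4, those that rose were Ndufa8, Ndufa9, Ndufa11, Ndufb7, Ndufb11, Sdhd, Uqcrc1, Uqcrfs1 and Cox5a, and Ndufc2 fell. In that fit the highest estimate among these other genes was 0.40, for Uqcrfs1. Without antagomiR replicate 1, antagomiR replicate 3 or NC replicate 2, only Cox6a2 was called.

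Genes that serve the same pathway, nearly all with symbols outside the member families, were read from the same test over all genes. Some of them, such as Cyc1 of complex III, are subunits as well. For comparison, 17.5% of all tested genes rose and 9.21% fell, and 26.5% and 13.9% without NC replicate 3. The share that rose was 4.65% of assembly factors, 11.1% of electron carriers, 5.26% of citric acid cycle genes and 14.3% of biogenesis regulators. Without NC replicate 3 these shares were 14.0%, 22.2%, 42.1% and 21.4%. Of 43 tested assembly factors, 2 rose, 2 fell and the median log2 fold change was 0.03. In the fit without NC replicate 3, 6 rose and 3 fell, and without any other single library 0 to 2 rose and 1 fell. The table lists Sdhaf1 on 2 overlapping rows of chromosome 1, both counted here, and the values that follow are those of the longer one. After median-ratio scaling 2 rose and 3 fell. Sdhaf1, which helps to insert the iron-sulfur clusters of complex II, was at 26.8, 28.9 and 31.9 FPKM in antagomiR replicates 1 to 3, against 18.1, 20.2 and 23.2 FPKM in NC replicates 1 to 3, without overlap (log2 fold change 0.49, limma adjusted p = 0.0118). Coa7, a complex IV assembly factor, rose by 0.41 (limma adjusted p = 0.0304). Cox18, which inserts part of the mitochondrially encoded subunit COX2 into the membrane, was at 7.05, 7.45 and 6.98 FPKM in antagomiR replicates 1 to 3, against 9.92, 9.44 and 9.8 FPKM in NC replicates 1 to 3. It fell with a log2 fold change of -0.39 (limma adjusted p = 0.00321), and the complex I assembly factor Ndufaf3 fell with -0.24 (adjusted p = 0.0455). Ndufaf3 also passed the threshold after median-ratio scaling (-0.30, limma adjusted p = 0.0172), but not without NC replicate 3, where Cox18 still did.

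Among 9 tested electron carriers and exchange proteins, 1 rose, 0 fell and the median log2 fold change was 0.01. The one that rose was Etfdh, which passes electrons from fatty acid oxidation to ubiquinone, at 15.2 ± 0.463 FPKM in antagomiR libraries and 12.4 ± 0.364 FPKM in NC libraries (SD, n = 3 each), with a log2 fold change of 0.27 (limma adjusted p = 0.0105). When NC replicate 3 was left out, 2 rose (Etfdh and Slc25a5), and without any other single library 0 to 1. After median-ratio scaling 1 rose (Etfdh) and 1 fell (Vdac2). Cycs, cytochrome c itself, was at 33.3, 34.2 and 35.6 FPKM in antagomiR replicates 1 to 3, against 35.1, 35 and 36 FPKM in NC replicates 1 to 3, and these ranges overlapped (limma adjusted p = 0.586). Cyc1, the cytochrome c1 subunit of complex III, whose symbol lies outside the families above, was at 60.7, 54.4 and 58.1 FPKM in antagomiR replicates 1 to 3, against 52.9, 50.3 and 63.5 FPKM in NC replicates 1 to 3. These overlapped too (limma adjusted p = 0.682).

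Of 19 tested genes of the citric acid cycle and the entry into it, 1 rose, 2 fell and the median log2 fold change was 0.09. With NC replicate 3 left out, 8 rose and 2 fell, and without any other single library 1 rose and 0 to 1 fell. Suclg2, a subunit of the succinyl-CoA synthetase that makes GTP, rose by 0.24 (limma adjusted p = 0.00896). Pdhb and Dlat, both subunits of the pyruvate dehydrogenase complex, fell, with log2 fold changes of -0.20 and -0.28 (limma adjusted p = 0.0197 and 0.0298). Dlat was at 11.4, 12.5 and 13.6 FPKM in antagomiR replicates 1 to 3, against 15.8, 15.4 and 14.8 FPKM in NC replicates 1 to 3. All antagomiR values were below all NC values.

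Of 14 tested regulators of mitochondrial biogenesis, 2 rose, 0 fell and the median log2 fold change was 0.08. Without NC replicate 3, 3 rose and 1 fell (Tfb1m), and without any other single library 1 to 2 rose and 0 fell. After median-ratio scaling 2 rose and 1 fell (Tfb1m). Tfam, which packages mitochondrial DNA and is needed to transcribe it, was at 14.5, 16.2 and 16.7 FPKM in antagomiR replicates 1 to 3, against 12, 12.9 and 12.5 FPKM in NC replicates 1 to 3, and rose by 0.32 (limma adjusted p = 0.0142). Nfe2l2, a regulator of antioxidant genes, rose by 0.30 (limma adjusted p = 0.0045). Nrf1, Gabpa and Yy1, which encode factors known to bind promoters of subunit genes in mammals, had log2 fold changes of 0.06, 0.03 and 0.15 (limma adjusted p = 0.58, 0.868 and 0.106). The coactivator Ppargc1a was under 1 FPKM in all libraries and was not tested.

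The genes for mitochondrial ribosomal proteins, which translate the mitochondrially encoded subunits, had 69 tested members. Of these, 8 rose (11.6%, against 17.5% of all tested genes), 0 fell and the median log2 fold change was 0.10. Mrpl49 rose by 0.41, Mrps12 by 0.38 and Mrpl1 by 0.33 (limma adjusted p = 0.00734, 0.0118 and 0.00865). Mrpl49 was at 36.7, 36.1 and 39.8 FPKM in antagomiR replicates 1 to 3, against 25.8, 27.5 and 30.6 FPKM in NC replicates 1 to 3, without overlap. After median-ratio scaling 6 of the 69 rose. Without NC replicate 3 there were 20 that rose (29.0%, against 26.5% of all tested genes) and 1, Mrpl51, that fell. Without any other single library 2 to 7 rose and 0 fell.

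A list of induced brakes and switch genes held the large changes around this pathway. It covers genes that can lower respiration or exchange its subunits, and others such as Sod2 and Egln3. The list was chosen with earlier results of these data known, so its share of rises is no test of the pathway. Of its 10 tested genes, among which Cox4i2 and Atp5if1 are also subunit members, 5 rose, 0 fell and the median log2 fold change was 0.48. Over all tested genes 17.5% rose. The 5 that rose in the list were Nos2, Acod1, Sod2, Ucp2 and Egln3, the last with a log2 fold change of 0.65 (limma adjusted p = 0.0108). The count that rose was 6 without NC replicate 3 and 4 to 6 without any other single library. Nos2 encodes the inducible nitric oxide synthase, whose product nitric oxide competes with oxygen at complex IV. It was at 17.4, 15.1 and 14.7 FPKM in antagomiR replicates 1 to 3, against 0.0268, 0.0107 and 0 FPKM in NC replicates 1 to 3, where it rested on 2, 1 and 0 fragments (limma adjusted p = 1.17e-06). Acod1, which makes itaconate, an inhibitor of succinate dehydrogenase, was at 4.73, 5.37 and 5.91 FPKM in antagomiR replicates 1 to 3, against 0.0967, 0.272 and 0.358 FPKM in NC replicates 1 to 3. Its difference also passed the threshold (limma adjusted p = 4.46e-05). Both genes were near absent from the NC libraries and above 4 FPKM in every antagomiR library.

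Sod2, the superoxide dismutase of the mitochondrial matrix, was at 87.8, 87.4 and 90.5 FPKM in antagomiR replicates 1 to 3, against 15.5, 13.9 and 16.8 FPKM in NC replicates 1 to 3, with a log2 fold change of 2.45 (limma adjusted p = 4.69e-06). Ucp2, a carrier of the inner membrane, was at 96.9, 85.9 and 91.2 FPKM in antagomiR replicates 1 to 3, against 31.7, 36.3 and 56.2 FPKM in NC replicates 1 to 3. It rose as well (log2 fold change 1.16, limma adjusted p = 0.00488). Both genes were higher in every antagomiR library than in any NC library. Within the NC group, Ucp2, Sod2 and Acod1 were each highest in replicate 3, the NC library with the highest leukocyte marker sum. Nos2 was not detected in that library. Sod2, at 16.8 FPKM there, was near the other NC libraries and far below every antagomiR library. Macrophages are also known to express Ucp2 and, when activated, Nos2, Acod1 and Sod2, and which cells of these cultures the transcripts came from was not tested.

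**Figure D4:**
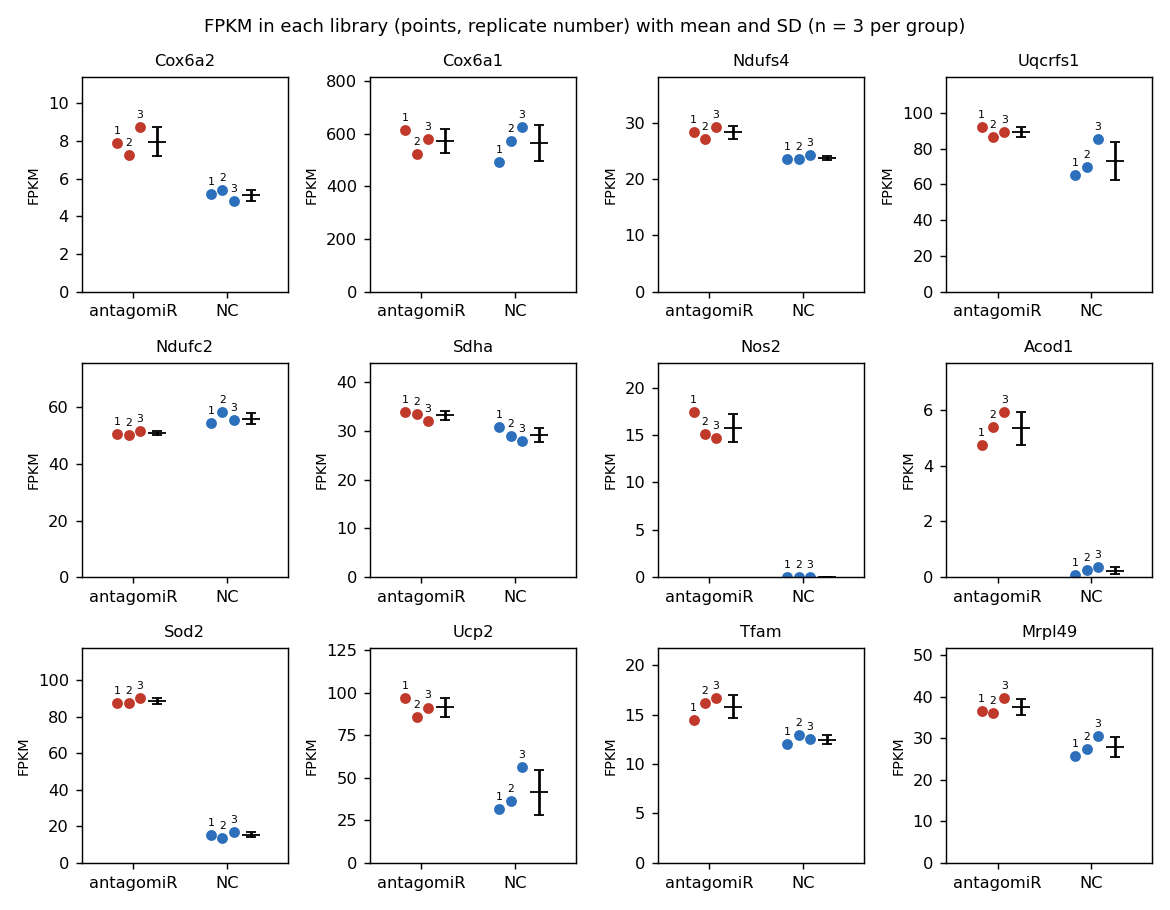
FPKM of 12 genes in each library (points, numbered by replicate), antagomiR left and NC right, with mean and SD (n = 3 per group); each panel has its own vertical axis from 0. Cox6a2 and Ndufs4 separate the groups and Cox6a1 does not. Uqcrfs1, Sdha and Ndufc2 also separate them but did not pass the threshold. Nos2, Acod1, Sod2 and Ucp2 differ by far more than any subunit gene shown.

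The start regions of the subunit genes were read for letters of 3 motifs named for factors known to act on such promoters, NRF1 (GCGCATGCG), GABPA (CCGGAAGT) and YY1 (AAGATGGC), on both strands. RefSeq (GRCr8) gave a window of 250 bases before to 50 after the start for 66 of the 73 symbols. No window was matched for Atp5pd, Cox4i2, Cox6a1, Cox6c, Ndufa10l1, Ndufa8 and Uqcrb. At least 1 of the motifs stood in 24 of the 66 windows (36.4%), in 17.0% of the windows matched to the genes tested and in 7.96% of all RefSeq windows. NRF1 letters were found in 6 member windows (9.09%), against 3.62% for the tested genes and 1.52% for all. GABPA letters were found in 7 (10.6%), against 8.92% for the tested genes and 3.81% for all. YY1 letters were found in 14 (21.2%), against 5.89% for the tested genes and 3.17% for all, and in 11 of these 14 they began at or after the start. No 2 of the motifs overlapped each other in a member window.

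By complex, at least 1 motif stood in 12 of 31 windows of complex I, 1 of 4 of complex II, 3 of 6 of complex III, 1 of 11 of complex IV and 7 of 14 of complex V. The windows of the 2 genes that rose are printed with that of Atp5po, which holds NRF1 and YY1 letters together and encodes a peripheral stalk subunit, to show how they differ. Capitals mark motif letters, and where NRF1 letters on both strands join, the run is longer than 1 motif. The windows lie on the minus strand at chr1:192219667-192219966 for Cox6a2, chr2:47794865-47795164 for Ndufs4 and chr11:44657434-44657733 for Atp5po in GRCr8, which is not the build of the expression table.
Cox6a2: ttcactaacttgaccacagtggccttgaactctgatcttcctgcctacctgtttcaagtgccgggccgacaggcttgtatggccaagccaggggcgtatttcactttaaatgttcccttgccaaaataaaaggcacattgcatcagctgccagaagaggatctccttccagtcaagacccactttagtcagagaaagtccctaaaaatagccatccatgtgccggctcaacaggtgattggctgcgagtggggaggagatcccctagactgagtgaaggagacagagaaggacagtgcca
Ndufs4: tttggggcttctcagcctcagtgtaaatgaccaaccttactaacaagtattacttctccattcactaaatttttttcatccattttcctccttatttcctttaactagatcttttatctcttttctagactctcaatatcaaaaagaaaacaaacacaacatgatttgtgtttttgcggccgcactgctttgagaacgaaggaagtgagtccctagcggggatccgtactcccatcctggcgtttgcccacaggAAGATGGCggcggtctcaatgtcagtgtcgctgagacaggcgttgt
Atp5po: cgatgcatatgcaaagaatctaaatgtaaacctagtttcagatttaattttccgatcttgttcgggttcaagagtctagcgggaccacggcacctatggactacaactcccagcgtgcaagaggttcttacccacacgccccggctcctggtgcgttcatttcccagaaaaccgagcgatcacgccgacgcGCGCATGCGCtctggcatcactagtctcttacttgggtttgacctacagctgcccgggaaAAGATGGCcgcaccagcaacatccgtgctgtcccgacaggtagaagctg
The Cox6a2 window held none of the 3 motifs. The Ndufs4 window held the YY1 letters once, near its 3' end, and the Atp5po window held NRF1 letters followed by YY1 letters. A match is a stretch of letters and not a measured binding site, and Atp5po itself was at 103, 96.8 and 92.8 FPKM in antagomiR replicates 1 to 3, against 97.6, 102 and 115 FPKM in NC replicates 1 to 3, with overlapping groups (log2 fold change -0.10, limma adjusted p = 0.363).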

How the data were processed

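RNA was measured in 3 antagomiR and 3 NC libraries by paired-end sequencing of 150 bp reads, per the labels' protocols. The authors deposited FPKM values for 30560 genes with symbols and coordinates. The tools FastQC, cutadapt, HISAT2, HTSeq and edgeR and the build mRatBN7.2 are named in the submitters' processing notes; which annotation was counted, and whether by strand, is not given in the sources used here. Columns were mapped to libraries by their names, and 0 columns of values were left unassigned. A listed value near 0 need not be a gene's level in the cells. A result for 1 gene is not reported here.

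Each FPKM value was turned back into a whole number of fragments within 0.01, which was possible for 100% of the 20134 genes above 0 and gave the library totals. Groups were compared with limma 3.58.1 under R 4.3.3 (eBayes with trend, two-sided) on log2(FPKM + 1), without a replicate block, for the 12024 genes averaging 1 FPKM or more. P-values were adjusted by Benjamini-Hochberg over all of these, with a threshold of 0.05. The code was tested on simulated data.

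The members and the gene lists were chosen with earlier results of these data known, so lists are described by counts and medians and got no test of their own. Named genes were all called members, the highest and lowest member of each complex, paralogs, members near the 1 FPKM level and up to 3 called genes per list. Ndufa11, Ndufc2, Ndufs5, Sdha and Uqcrfs1 were named after their values were seen, and further genes were named for their role.

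Alternatives were pseudocounts of 0.1 and 0.01, no filter, a filter at 5 FPKM, median-ratio, TPM and quantile scaling, a replicate block, limma without trend and with robust variances, limma voom on the recovered fragments, and leaving out each library.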

Additional observations from a re-analysis of the deposited data

How the results depend on the processing

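Under the 17 other settings, Cox6a2 rose in each, and Ndufs4 in all but limma voom and the fits without antagomiR replicate 1, antagomiR replicate 3 or NC replicate 2. The count of members that rose was 2 as reported, 1 with limma voom, and 1 to 11 when 1 library was left out; the count that fell was 0, then 2 after median-ratio scaling (Ndufc2 and Ndufa4), 2 after quantile normalization (Ndufc2 and Cox4i2), 1 with limma voom (Ndufc2) and 0 to 1 with a library left out. These falls lay in complex I, 1 in each of the 3 settings and all in its membrane arm (1), and in complex IV, 1 in each of the 2 rescalings. With limma voom the rises in complex I and its matrix arm were 0. With a library left out, rises ran from 0 to 6 in complex I and its falls from 0 to 1, rises from 0 to 2 in the matrix arm and from 0 to 4 in the membrane arm, falls there from 0 to 1, and rises from 0 to 1 in complex II, 0 to 2 in complex III and 1 to 2 in complex IV. The causes were not tested.

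Over all tested genes, 1216 to 3185 rose and 667 to 1677 fell with a library left out, and 1869 fell after quantile normalization. The share of rises among called genes was 65.6%, and 51.5% after median-ratio scaling, 61.1% as TPM, 43.1% after quantile normalization and 52.6% with limma voom. Over all genes the median log2 fold change was 0.06, and 9.1e-05, 0.04, -0.05 and 0.0033 in the same order; quantile normalization thus shifted it by over 0.1. It was 0.07 with either smaller pseudocount, 0.02 without a filter and 0.06 to 0.07 with a library left out. The median of the members followed, at 0.05 and then -0.01, 0.02, -3.1e-05 and -0.01.

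Some log2 fold changes near 0 changed sign, none of them called either way. After median-ratio scaling this was seen for Sdhb (-0.01), Cox6a1 (-0.04), Atp5f1b (-0.06), Cox4i1 (-0.00054), Atp5mc2 (-0.06) and Atp5mc3 (-0.05). With limma voom this was seen for Sdhb (-0.0034), Cox6a1 (-0.04), Atp5f1b (-0.06), Atp5mc2 (-0.05) and Atp5mc3 (-0.05). As TPM this was seen for Cox6a1 (-0.0037), Atp5f1b (-0.02), Atp5mc2 (-0.02) and Atp5mc3 (-0.01). After quantile normalization this was seen for Cox7a1 (-0.08), Atp5mc2 (-0.0031) and Atp5mc3 (-0.04). With a library left out the estimates ran from -0.05 to 0.07 for Atp5f1b, -0.15 to 0.01 for Atp5mc1, -0.03 to 0.06 for Atp5mc2, -0.07 to 0.13 for Atp5mc3, -0.04 to 0.17 for Cox4i1, -0.07 to 0.11 for Cox6a1, -0.04 to 0.15 for Cox7a1, -0.08 to 0.07 for Cox7a2l, -0.25 to 0.05 for Ndufs6 and -0.01 to 0.14 for Sdhb. For the 40 genes followed over 17 settings, 601 of the values kept their direction and side of the threshold, 29 lost a call and 10 gained one.

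Replicate numbers are shared by the groups, but correlations of same-numbered libraries' deviations were -0.16, -0.06 and -0.04, so the numbers are not shown to pair the libraries. With a replicate block 1571 genes rose and 809 fell, and of the members 2 rose (Cox6a2 and Ndufs4) and 0 fell.

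Precision is limited by 3 libraries per group, and for Cox6a2 by 45 to 95 fragments per library. A call missed at this size does not show that a gene did not differ.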
